A study of Chlorocebus sabaeus with 32 samples.

Results

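The cholinergic genes described here are 4 muscarinic receptors (CHRM1, CHRM2, CHRM3 and CHRM4), 3 nicotinic receptor subunits (CHRNA4, CHRNA7 and CHRNB2) and acetylcholinesterase (ACHE). They are 8 of the 33994 gene rows in the count table, taken by name. Symbols found 7 of the 8, and CHRNA4 is the row named only by the gene number LOC103242748, a number that RefSeq (mChlSab1.0.hap1) pairs with CHRNA4. The libraries come from the hippocampus of 32 vervet monkeys (Chlorocebus sabaeus), an African green monkey, in a study of hippocampal development, and every animal is labelled as under 1 year old with no exact age, sex or treatment. Each title has its own identifier, so each library was taken as 1 animal. Titles begin with 2010 in 16 libraries, with 2009 in 14 and with 2011 in 2, and the labels do not say what this prefix stands for. Within prefix 2010, the number that follows lies above 20000 in 9 libraries and below it in 7, while all 14 libraries of prefix 2009 have low numbers, and the meaning of that number is not given either.

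Acetylcholine reaches the hippocampus mainly along axons from the medial septum and diagonal band, whose cell bodies lie outside the dissected tissue. Muscarinic receptors are coupled to G proteins: the CHRM1 and CHRM3 products act mainly through Gq and phospholipase C, those of CHRM2 and CHRM4 through Gi/o. Nicotinic receptors are ion channels built of several subunits, and in the brain the CHRNA4 and CHRNB2 products commonly assemble together whereas the CHRNA7 product can form a channel by itself. ACHE ends the signal by splitting acetylcholine in the synaptic cleft.

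Gene counts per library ran between 9347635 and 19673621, with a median of 16201657. Values are given as CPM, each gene's reads relative to the library's total gene counts after scaling between libraries. They were not divided by transcript length, so levels are compared between libraries and not between genes. Every one of the 8 genes had reads in all 32 libraries, the lowest value being 74 reads of CHRM2, and all 8 passed the filter on low counts. Marker lists for dentate granule and CA pyramidal neurons had no gene at 0 throughout, and the summed dentate markers ran between 186 and 635 CPM over the libraries.

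A group of 3 libraries stood apart by levels of the 8 genes or by marker sums, a choice made after seeing the data. Results for the 8 genes without these libraries thus rest in part on values used to choose them. Replicate 1 of prefix 2009 had the fewest gene counts, 9347635, and the largest share of reads in no gene feature, 67.1% against a mean of 57.0% ± 3.61 (SD, n = 32). It had the lowest summed CA pyramidal markers of all 32 libraries, 182 CPM, and the highest thalamic and microglial sums, 113 and 300.2 CPM. Replicates 2 and 8 of prefix 2010 had striatal marker sums of 1042 and 371 CPM, against at most 163 CPM in the other 29 libraries. Their thalamic sums, 91.2 and 79.9 CPM, also lay above the other 29 libraries, which had at most 69.3 CPM. The enkephalin gene PENK stood at 446 and 160 CPM in these replicates and at no more than 26.6 CPM elsewhere. They also held 23 and 26 reads of CHAT, the enzyme that makes acetylcholine, where the other 30 libraries had at most 4. For 8 basal forebrain cholinergic markers, CHAT among them, their sums were 17.8 and 14.9 CPM against at most 8.24 CPM in the other 29. Replicate 8 also carried 5848 reads of the choroid plexus gene TTR. Summed dentate granule markers were low in all 3 libraries. They were 186 and 314 CPM in replicates 2 and 8 of prefix 2010 and 236 CPM in replicate 1 of prefix 2009, ranks 32, 29 and 31 of 32. Differences between prefixes for the 8 genes are given with and without these libraries. In bulk tissue fewer cells of a type and less RNA per cell cannot be told apart.

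Between prefixes, none of the 8 genes passed edgeR's quasi-likelihood test at an adjusted p of 0.05, although 12.5% of the 23977 genes tested did. At an unadjusted p under 0.05 there were 3, CHRM3, CHRNA7 and CHRNB2, where 27.3% of all genes lay under it, and DESeq2 called 0 of the 8, where it called 14.8% of all genes. Of the 8 estimates 4 were above and 4 below 0, with a median of 0.05 on the log2 scale against 0.01 over all genes tested. CHRM1, CHRM3, CHRM4 and CHRNB2 had estimates below 0 in prefix 2010, and CHRM2, CHRNA4, CHRNA7 and ACHE had estimates above 0. That count changed without either of 2 single libraries. Without replicate 1 of prefix 2009, where 16.2% of all genes were called, 4 genes passed: CHRNA4 and CHRNA7 were higher and CHRM1 and CHRNB2 lower in prefix 2010. Without replicate 16 of prefix 2010, CHRNA7 alone passed. Without all 3 libraries that stood apart, where 14.4% of all genes were called, CHRNA4 alone passed.

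**Figure D1:**
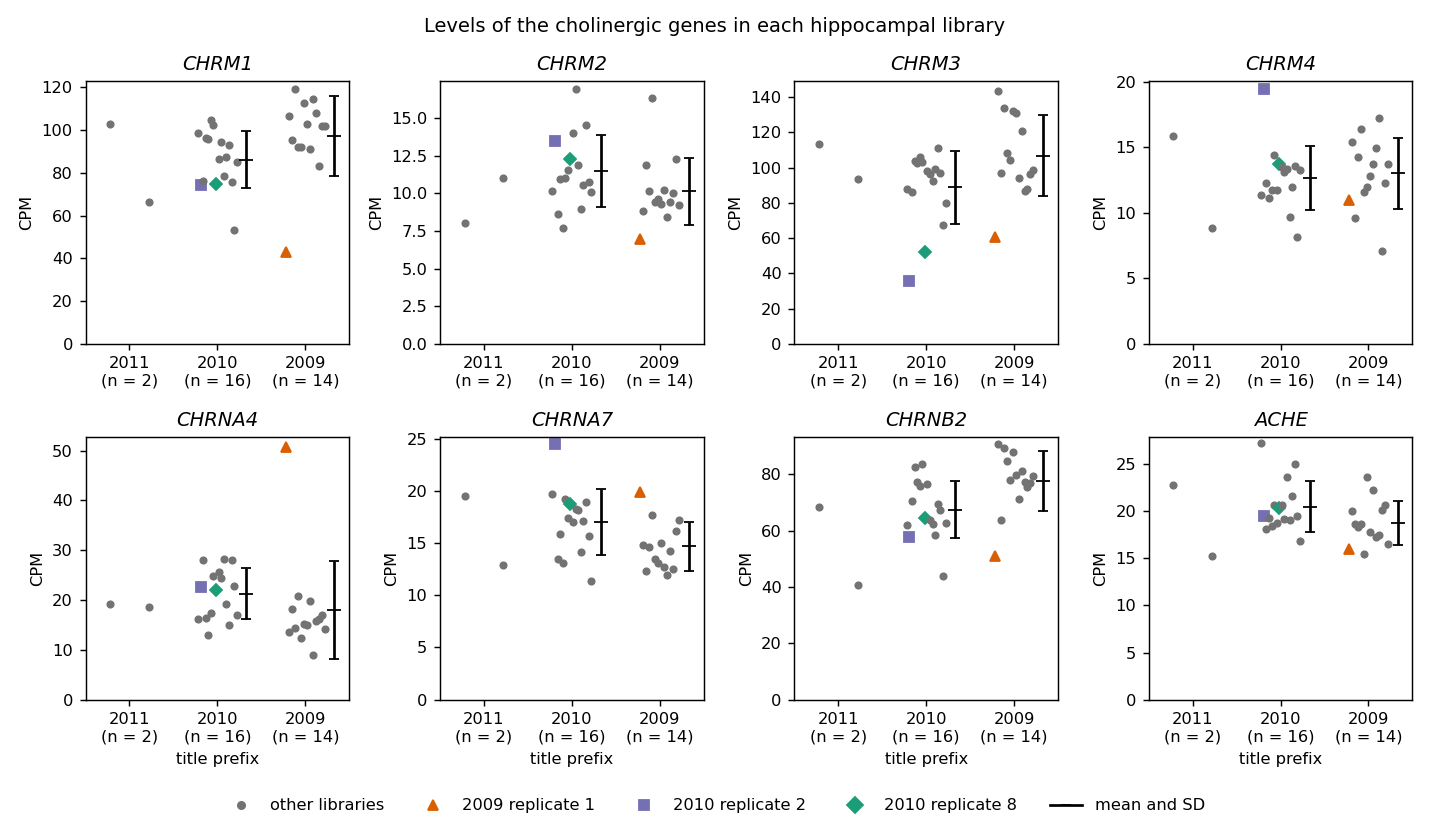
CPM of each cholinergic gene (vertical axes from 0) in every library, grouped by title prefix, with mean and SD for prefixes 2010 and 2009 and distinct symbols for the 3 libraries that stood apart. The prefix ranges overlap for every gene, and the highest CHRNA4 value, 50.6 CPM, belongs to replicate 1 of prefix 2009.

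CHRM1, the main Gq-coupled muscarinic receptor of hippocampal pyramidal neurons, had a lowest, median and highest level of 53.2, 86.9 and 104 CPM in prefix 2010, against 42.8, 102 and 119 CPM in prefix 2009. The ranges overlapped, and 14 of 16 prefix 2010 libraries lay below the prefix 2009 median. The lowest level of all belonged to replicate 1 of prefix 2009. Means were 86.0 ± 13.4 CPM in prefix 2010 (SD, n = 16) and 97.3 ± 18.7 CPM in prefix 2009 (n = 14), a log2 difference of -0.17 ± 0.10 (SE, edgeR adjusted p = 0.255). Without replicate 1 the prefix 2009 mean was 102 ± 10.5 CPM (n = 13), and the difference of -0.23 ± 0.08 passed with an adjusted p of 0.0329. Leaving out all 3 gave -0.21 ± 0.08 with an adjusted p of 0.0662.

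CHRM3, the other Gq-coupled receptor, ran over 35.8, 96.5 and 111 CPM in prefix 2010 (lowest, median, highest), against 60.4, 102 and 144 CPM in prefix 2009. Both low ends came from libraries that stood apart. Replicates 2 and 8 of prefix 2010 had 35.8 and 52.2 CPM, replicate 1 of prefix 2009 had 60.4 CPM, and no other library was under 67.5 CPM. The mean was 88.7 ± 20.7 CPM in prefix 2010 and 107 ± 22.9 CPM in prefix 2009, a log2 difference of -0.26 ± 0.12 (edgeR adjusted p = 0.151). With the 3 libraries left out the means were 95.1 ± 11.6 CPM in prefix 2010 and 110 ± 19.4 CPM in prefix 2009, and the difference was -0.21 ± 0.08 with an adjusted p of 0.0661. The 3 libraries left out also had the highest thalamic marker sums of the series and low dentate granule sums. The part of the striatal and other markers in the CHRM3 values was not tested.

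CHRM2 encodes a Gi/o-coupled receptor known as a presynaptic autoreceptor on cholinergic terminals. It had 7.69, 10.96 and 16.96 CPM in prefix 2010 (lowest, median, highest), against 6.96, 9.50 and 16.4 CPM in prefix 2009. Although 13 of 16 prefix 2010 libraries exceeded the prefix 2009 median, the ranges nearly coincided, and the difference of 0.18 ± 0.10 did not pass (edgeR adjusted p = 0.261), nor did the 0.12 ± 0.11 without the 3 libraries (adjusted p = 0.496). CHRM4, also Gi/o-coupled and best known from striatal projection neurons, had 8.18, 12.7 and 19.4 CPM in prefix 2010, against 7.05, 13.3 and 17.2 CPM in prefix 2009. Its highest level of the series, 19.4 CPM, was in replicate 2 of prefix 2010, the library with the largest striatal sum, whereas replicate 8 had 13.7 CPM, inside the range of the other libraries. The log2 difference between prefixes was -0.04 ± 0.11 (edgeR adjusted p = 0.875), and -0.12 ± 0.11 without the 3 libraries (adjusted p = 0.492). In the RefSeq table CHRM4 overlaps MDK, a growth factor gene, and without the strand setting of the counting reads cannot be assigned for certain. MDK averaged 3.67 ± 1.33 CPM, and its correlation with CHRM4 over the 32 libraries was -0.06 (Pearson's r, a description). For CHRNA7 no position was found under that symbol in the RefSeq table, so its overlap with other genes was not checked.

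**Figure D2:**
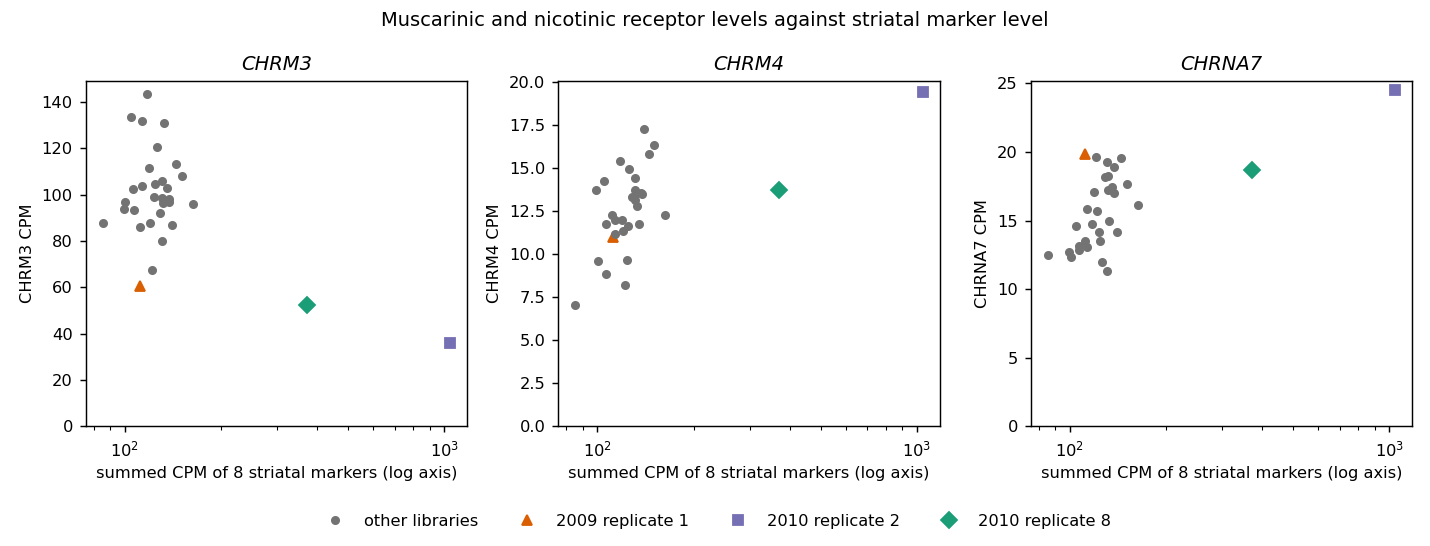
CPM of CHRM3, CHRM4 and CHRNA7 (vertical axes from 0) against the summed CPM of 8 striatal markers (horizontal log axis) in each of 32 libraries. Replicates 2 and 8 of prefix 2010, at sums of 1042 and 371 CPM, have the lowest CHRM3 levels, and replicate 2 has the highest CHRM4 and CHRNA7 levels.

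CHRNA4, the alpha subunit of the common heteromeric brain receptor, spanned 13.1, 22.3 and 28.2 CPM in prefix 2010 (lowest, median, highest), against 9.003, 15.5 and 50.6 CPM in prefix 2009. The 50.6 CPM came from replicate 1 of prefix 2009, and no other prefix 2009 library exceeded 20.8 CPM. In prefix 2010, 14 of 16 libraries lay above the prefix 2009 median. The mean was 21.3 ± 5.04 CPM in prefix 2010 and 18.02 ± 9.85 CPM in prefix 2009, a log2 difference of 0.25 ± 0.17 (edgeR adjusted p = 0.353). Without replicate 1 the prefix 2009 mean was 15.5 ± 3.12 CPM, and CHRNA4 was higher in prefix 2010 by 0.46 ± 0.12 with an adjusted p of 0.00652. Without all 3 libraries the difference was 0.45 ± 0.12 with an adjusted p of 0.0133, but with only the low title numbers of prefix 2010, replicate 1 included, it was 0.31 ± 0.23 with an adjusted p of 0.483.

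CHRNB2, the beta subunit that assembles with CHRNA4, had the opposite sign. Its lowest, median and highest levels were 44.0, 66.0 and 83.6 CPM in prefix 2010, against 50.9, 78.6 and 90.7 CPM in prefix 2009. The ranges overlapped, and 14 of 16 prefix 2010 libraries lay below the prefix 2009 median. Means of 67.4 ± 10.2 CPM in prefix 2010 and 77.6 ± 10.5 CPM in prefix 2009 gave a log2 difference of -0.20 ± 0.08 (edgeR adjusted p = 0.102). Without replicate 1 of prefix 2009 it was -0.23 ± 0.07 with an adjusted p of 0.0303, and without all 3 libraries -0.22 ± 0.08 with an adjusted p of 0.0548.

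CHRNA7, whose product forms calcium-permeable channels, had 11.3, 17.3 and 24.5 CPM in prefix 2010 (lowest, median, highest), against 11.99, 14.4 and 19.9 CPM in prefix 2009. The extremes at the top were again libraries that stood apart, replicate 2 of prefix 2010 and replicate 1 of prefix 2009. With 12 of 16 prefix 2010 libraries above the prefix 2009 median, means were 17.04 ± 3.15 CPM in prefix 2010 and 14.7 ± 2.32 CPM in prefix 2009. The difference of 0.22 ± 0.09 did not pass (edgeR adjusted p = 0.107). It passed without replicate 1 of prefix 2009, at 0.26 ± 0.09 and an adjusted p of 0.0404, and without replicate 16 of prefix 2010, the lowest CHRNA7 library, at 0.25 and an adjusted p of 0.0462, but not without all 3 libraries, at 0.20 ± 0.08 and an adjusted p of 0.101.

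ACHE varied least of the 8 genes. It had 16.8, 19.5 and 27.2 CPM in prefix 2010 (lowest, median, highest), against 15.5, 18.4 and 23.6 CPM in prefix 2009, and none of the 3 libraries that stood apart was at either end. Means were 20.5 ± 2.73 CPM in prefix 2010 and 18.7 ± 2.34 CPM in prefix 2009, and the difference of 0.13 ± 0.07 did not pass (edgeR adjusted p = 0.219), nor did the 0.12 ± 0.08 without the 3 libraries (adjusted p = 0.309). The biological coefficient of variation, the spread between libraries beyond counting noise, was 0.131 for ACHE, at the 35.3th percentile of all genes. CHRNA4 had 0.323, at the 91.5th percentile, and CHRM3 0.237, at the 79.0th, while the other 5 lay between 0.173 and 0.194, above the median over all genes of 0.157.

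The 2 libraries of prefix 2011 were not compared. They had 103 and 66.2 CPM of CHRM1, 113 and 93.4 CPM of CHRM3, and 68.3 and 40.8 CPM of CHRNB2, the last being the lowest CHRNB2 level of the series. CHRNA4 stood at 19.2 and 18.5 CPM there and ACHE at 22.7 and 15.2 CPM. Replicate 2 of prefix 2011 was the lowest of all 32 libraries for both CHRNB2 and ACHE.

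Within prefix 2010, high title numbers were set against low ones (9 and 7 libraries). No cholinergic gene passed in edgeR, 0 of the 8 reached an unadjusted p under 0.05 and DESeq2 called none. Over all 23977 genes edgeR called 0%, 12.2% had an unadjusted p under 0.05, and DESeq2 called 109 genes, 0.659% of those it tested. The estimates for the 8 genes had a median of -0.04, and the one farthest from 0 was CHRM2 at 0.15 ± 0.14.

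Since no exact ages are given, the libraries were also ordered by the mean standardized level of 12 genes of young neurons, such as DCX, STMN1 and SOX11, and slopes were taken per SD of that score. It is a measure of RNA and not an age. The score averaged 0.56 ± 0.70 in prefix 2010 and -0.86 ± 0.51 in prefix 2009 (SD), so prefix and score overlap strongly. Of the 8 genes, 1 passed, CHRNB2, where 33.5% of 19959 genes did and 17.2% passed with negative slopes. DESeq2 also called CHRNB2 alone of the 8, where it called 34.9% of all genes, and 2 of the 8, CHRNB2 and ACHE, had an unadjusted p under 0.05, where 43.2% of all genes did. CHRNB2 fell by 0.13 ± 0.04 on the log2 scale per SD of the score (edgeR adjusted p = 0.0151). The median slope of the 8 genes was -0.01, against -0.0020 over all genes.

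The 3 libraries with the highest scores, replicate 1 of prefix 2011 and replicates 15 and 12 of prefix 2010, had 68.3, 44.0 and 58.5 CPM of CHRNB2, while the lowest score, -1.76, belonged to replicate 1 of prefix 2009 with 50.9 CPM. The CHRNB2 slope lost its call without replicate 15 of prefix 2010, at -0.10 and an adjusted p of 0.0639. With title prefix in the fit it was -0.04 with an adjusted p of 0.742, and it was -0.14 within prefix 2010 (adjusted p = 0.311, edgeR) and 0.10 within prefix 2009 (adjusted p = 0.628). The slope within prefix 2010 thus had the size of the pooled one and did not pass, and within prefix 2009 its sign turned. ACHE had a slope of 0.08 ± 0.03 that did not pass (adjusted p = 0.0719) but passed without replicate 7 or 9 of prefix 2009 or replicate 2 of prefix 2011, with adjusted p of 0.0350, 0.0347 and 0.0192.

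Slopes of the other genes also turned on the libraries that stood apart. Without those 3, 4 of 8 genes passed in edgeR, where 35.7% of all genes did. CHRM1 and CHRNB2 fell by 0.12 ± 0.04 and 0.16 ± 0.04 per SD of the score, with adjusted p of 0.00757 and 0.00115, and CHRNA4 and CHRNA7 rose by 0.19 ± 0.06 and 0.12 ± 0.04, with adjusted p of 0.0157 and 0.0173. With all 32 libraries the slope of CHRNA4 was 0.02 ± 0.08, that of CHRM1 -0.08 ± 0.05 and that of CHRNA7 0.07 ± 0.05. Without replicate 1 of prefix 2009 alone, CHRM1, CHRNA4 and CHRNB2 passed, where 33.7% of all genes did. Their edgeR adjusted p were 0.00922, 0.0187 and 0.00140. No gene of the 8 had a slope that differed between prefixes in edgeR or DESeq2 (0% of 20037 genes called by edgeR). CHRNA4 was the 1 gene at an unadjusted p under 0.05, with a slope difference of 0.78 ± 0.25 (adjusted p = 0.654), which was 0.27 ± 0.24 without the 3 libraries. Of all genes, 6.49% lay under that p.

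**Figure D3:**
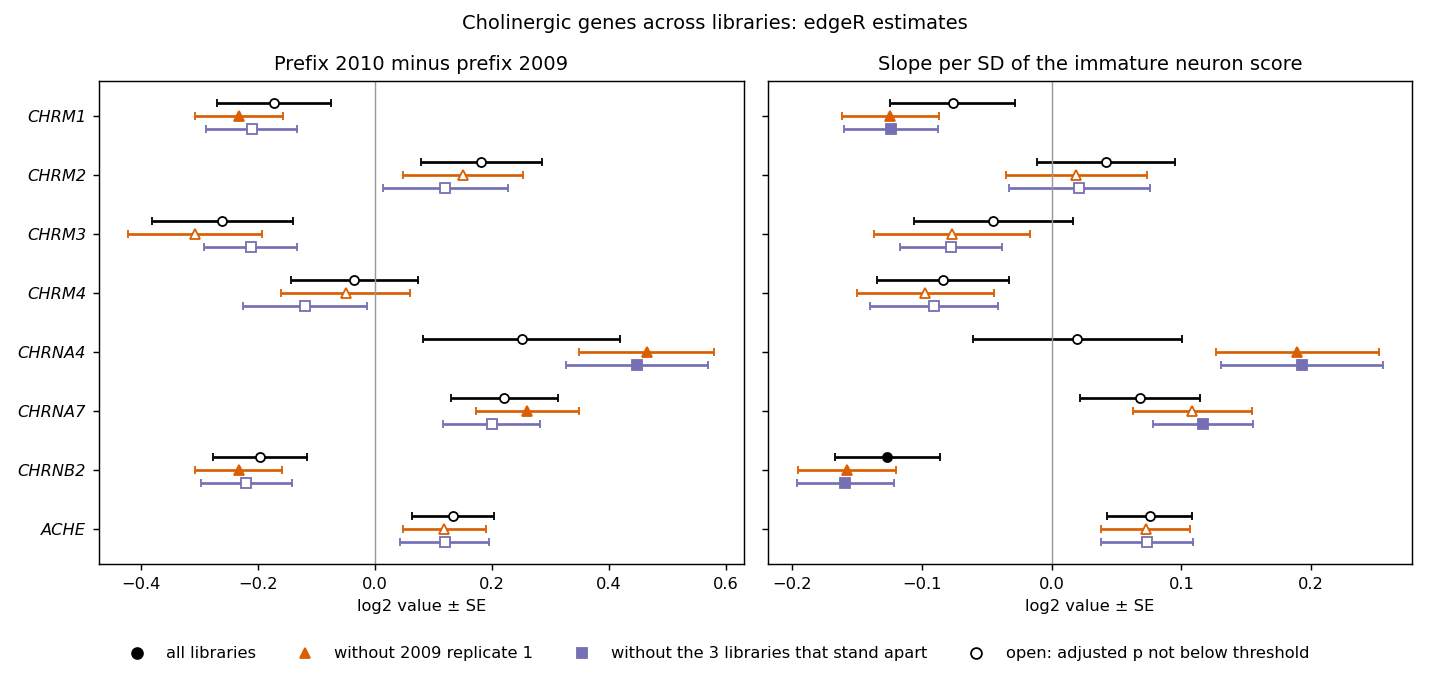
Log2 difference of prefix 2010 minus prefix 2009 (left) and log2 slope per SD of the immature neuron score (right) for each cholinergic gene, with SE bars, in edgeR fits with all libraries, without replicate 1 of prefix 2009 and without the 3 libraries that stood apart. Filled symbols have an adjusted p under 0.05: with all libraries the slope of CHRNB2 alone is filled, and without replicate 1 of prefix 2009 the left panel has 4 filled.

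In the ratio of a pair of genes within a library the scaling of that library cancels, apart from the prior count, and 5 such ratios were compared between prefixes by two-sided permutation tests of 100000 resamples. The log2 ratio of CHRNA7 to CHRNB2 averaged -1.98 ± 0.37 in prefix 2010 (SD, n = 16) and -2.39 ± 0.35 in prefix 2009 (n = 14). It was higher in prefix 2010 by 0.41 ± 0.13 (SE, permutation p = 0.00443, adjusted over 5 ratios 0.0221), and 14 of 16 prefix 2010 libraries exceeded the prefix 2009 median. Leaving out any 1 library kept the call, with differences between 0.36 and 0.49, and without the 3 libraries the difference was 0.42 with an adjusted p of 0.00182. Between the 7 low-numbered libraries of prefix 2010 and prefix 2009 it was 0.44 and did not pass (exact permutation test, adjusted p = 0.0891).

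The ratio of CHRNA4 to CHRNB2, the partner subunits, averaged -1.68 ± 0.46 in prefix 2010 and -2.20 ± 0.73 in prefix 2009. The difference of 0.52 ± 0.23 narrowly missed (permutation test, adjusted p = 0.0548), with 15 of 16 prefix 2010 libraries above the prefix 2009 median. Without the 3 libraries it was 0.66 and passed with an adjusted p of 0.00182. Leaving out 1 library gave a call in 8 of 30 cases, namely replicates 1, 3 and 9 of prefix 2009 and replicates 4, 5, 6, 13 and 16 of prefix 2010, and the difference was largest, 0.69, without replicate 1 of prefix 2009. The prefixes overlapped in both ratios.

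The other 3 ratios did not pass. CHRM1 to CHRM3, the Gq-coupled pair, differed by 0.12 ± 0.11 (permutation test, adjusted p = 0.289), and its highest values, 1.05 and 0.52, were in replicates 2 and 8 of prefix 2010. CHRM2 to CHRM4, the Gi/o-coupled pair, differed by 0.20 ± 0.13 (adjusted p = 0.164). ACHE to BCHE, butyrylcholinesterase, which also splits acetylcholine, differed by 0.26 ± 0.13 (adjusted p = 0.104), and passed without replicate 7 or 9 of prefix 2009 or replicate 16 of prefix 2010, with adjusted p of 0.0450, 0.0332 and 0.0416.

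**Figure D4:**
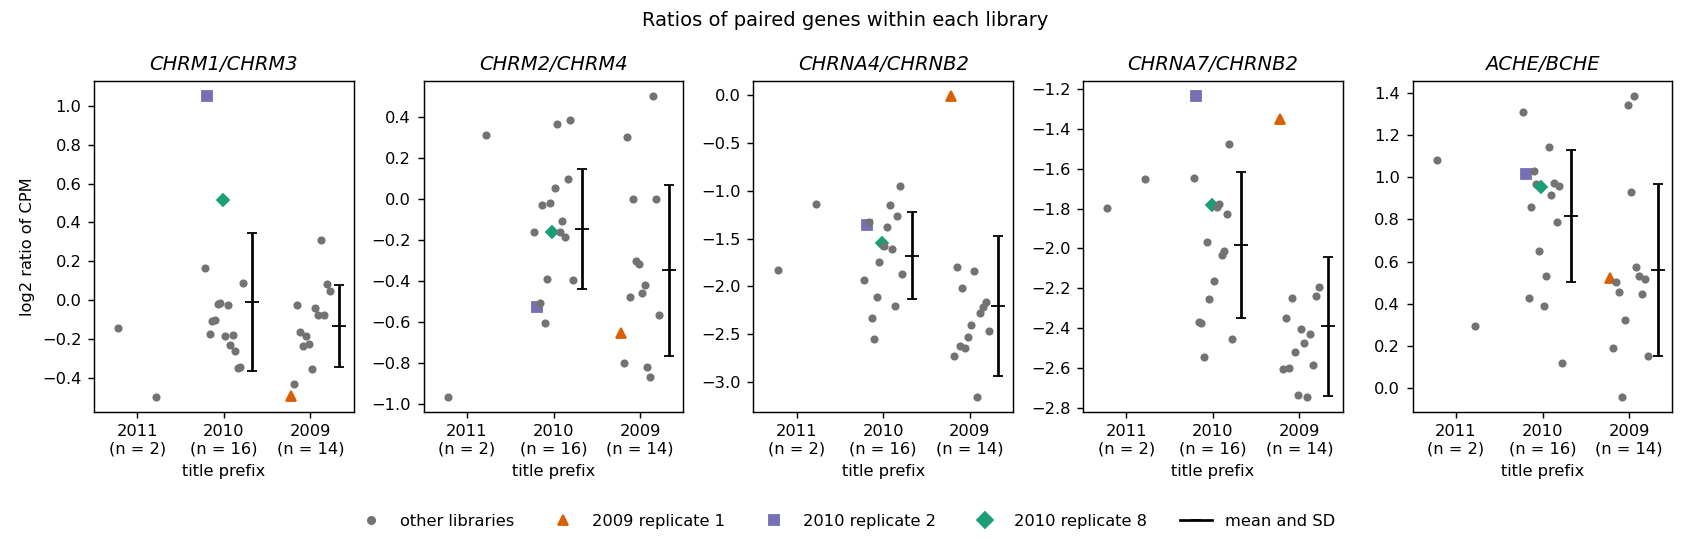
Log2 ratio of CPM of each gene pair (vertical axes) in every library, grouped by title prefix, with mean and SD for prefixes 2010 and 2009. The CHRNA7 to CHRNB2 ratio averages -1.98 in prefix 2010 and -2.39 in prefix 2009, and replicate 1 of prefix 2009 lies far above its group for CHRNA4 to CHRNB2.

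Across the 32 libraries the genes fell into pairs that moved together and pairs that moved in opposition. Of 28 pairs, 8 had a Pearson's r past the threshold (permutation tests of 100000 resamples, adjusted over 28), 4 positive and 4 negative. By Spearman's rho 8 pairs passed, and 7 passed by both. The share passing among pairs of other genes was not computed, so these counts cannot be read as particular to the cholinergic genes. CHRM1 and CHRNB2 were the closest pair, with r of 0.79 and rho of 0.74 (adjusted p = 0.00014 each, from the smallest p these permutations can give). For each pair, the 2 libraries farthest from the median of 1 gene were also left out, the gene first in the opening list. Here that gene was CHRM1, and r was 0.74 without them, 0.77 within prefix 2010 and 0.86 within prefix 2009. Within prefix 2009 without replicate 1 it was 0.56 and did not pass (adjusted permutation p = 0.256).

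CHRM3 joined them. Its r with CHRM1 was 0.67 and its rho 0.74 (adjusted permutation p = 0.00299 and 0.000187), with r of 0.64 without the 2 farthest libraries, 0.57 within prefix 2010 and 0.81 within prefix 2009. With CHRNB2 its r was 0.60 and its rho 0.74 (adjusted permutation p = 0.00553 and 0.00014), with r of 0.70 without the 2 farthest, 0.52 within prefix 2010 and 0.87 within prefix 2009. Thus CHRM1, CHRM3 and CHRNB2 correlated positively with each other in all of these subsets. Within prefix 2010, however, CHRM3 passed neither with CHRM1 nor with CHRNB2 (adjusted permutation p = 0.185 and 0.196).

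CHRNA4 ran against these 3. Its r with CHRM1 was -0.73 and its rho -0.66 (adjusted permutation p = 0.00014 and 0.00042), with r of -0.61 without the 2 farthest libraries, -0.46 within prefix 2010 and -0.88 within prefix 2009. With CHRM3, r was -0.51 and rho -0.55 (adjusted permutation p = 0.0232 and 0.00635). The r was -0.63 without the 2 farthest, -0.21 within prefix 2010 and -0.74 within prefix 2009. Those 2 were chosen by CHRM3, so replicate 1 of prefix 2009, the highest in CHRNA4, stayed in. With CHRNB2, the partner subunit of CHRNA4, r was -0.48 and rho -0.55 (adjusted permutation p = 0.0232 and 0.00635). Without the 2 libraries farthest in CHRNA4, r was -0.38 and no longer passed. It was -0.18 within prefix 2010 and -0.78 within prefix 2009. Without replicate 1 of prefix 2009 the within-prefix r of CHRNA4 with CHRM1, CHRM3 and CHRNB2 was -0.51, -0.41 and -0.34, and 0 of 28 pairs passed by r in that prefix, where 6 did with it.

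Among the remaining pairs, CHRNA4 and CHRNA7 had r of 0.50 and rho of 0.47 (adjusted permutation p = 0.0167 and 0.0227), with 0.39 and no call without the 2 farthest libraries, 0.29 within prefix 2010 and 0.64 within prefix 2009. CHRM3 and CHRNA7 had r of -0.43 (adjusted permutation p = 0.0471) but rho of -0.14, with r of -0.12 without the 2 farthest libraries, -0.41 within prefix 2010 and -0.36 within prefix 2009. That relation rests on few libraries, since r was 0.03 without the 3 that stood apart. CHRM2 and CHRNA4 passed by rho alone, 0.49 (adjusted permutation p = 0.0206), with r of 0.25, 0.20 without the 2 farthest, 0.56 within prefix 2010 and -0.09 within prefix 2009. Without the 3 libraries its r was 0.58 and passed (adjusted permutation p = 0.00658). Within prefix 2009 without replicate 1 the r of this pair was 0.74 and did not pass (adjusted permutation p = 0.129). Over all 32 libraries ACHE passed with none of the other 7. Without the 3 libraries its r with CHRNA7 was 0.53 and passed (adjusted permutation p = 0.0119). That r was 0.77 within prefix 2010 without replicates 2 and 8 (adjusted permutation p = 0.0288) and -0.20 within prefix 2009 without replicate 1 (0.754). Without the 3 libraries that stood apart, 12 of 28 pairs passed by r, 10 of them positive. In prefix 2010 alone 1 pair passed.

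**Figure D5:**
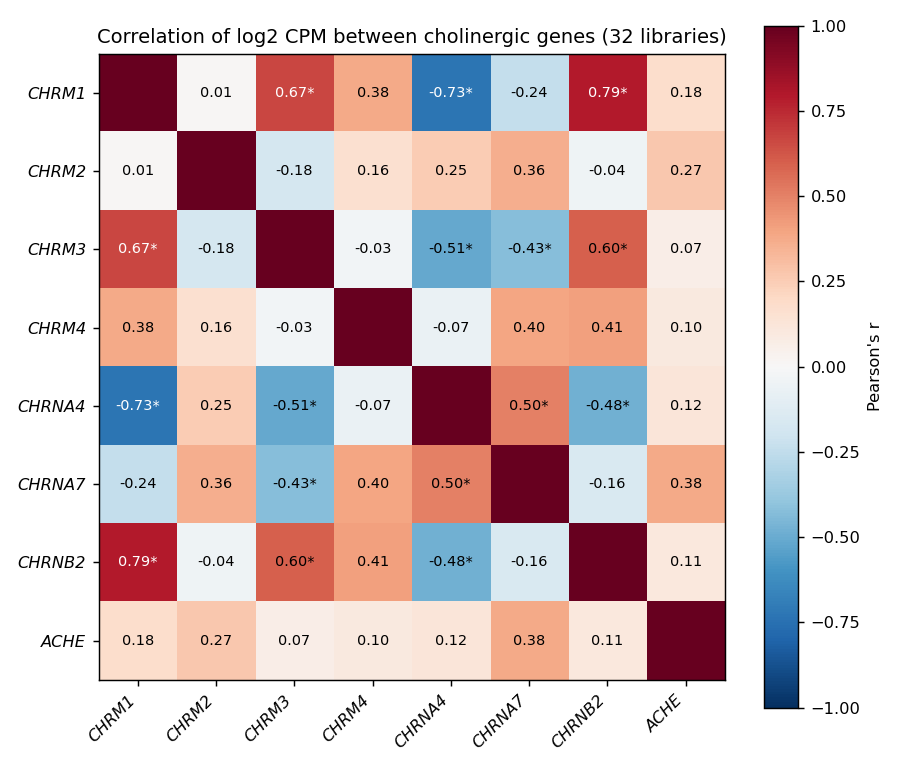
Pearson's r of log2 CPM between each pair of cholinergic genes over 32 libraries (colour scale from -1 to 1), with a star where the permutation p adjusted over 28 pairs is under 0.05. CHRM1, CHRM3 and CHRNB2 form a positive block with r of 0.60 to 0.79, and CHRNA4 is negative with each of them.

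The share of reads that fell in no gene feature moved with some of these genes, a relation examined after seeing the data. Over 32 libraries its r with CHRM1 was -0.60 and its rho -0.52 (adjusted permutation p over 8 genes 0.00336 and 0.0102), with CHRM3 -0.50 and -0.65 (0.0121 and 0.00096), and with CHRNA4 0.55 and 0.44 (0.00480 and 0.0364). Without the 2 libraries of most extreme share these r were -0.39, -0.43 and 0.30. Within prefix 2010 they were -0.48, -0.41 and 0.40, and within prefix 2009 -0.80, -0.79 and 0.82. The share averaged 56.9% ± 3.40 in prefix 2010 and 57.5% ± 3.86 in prefix 2009 (SD). With the share in the fit, edgeR called 18.5% of all genes between prefixes. CHRNA4 was then higher in prefix 2010 by 0.37 ± 0.13 (edgeR adjusted p = 0.0384) and CHRNB2 lower, at -0.21 ± 0.07 (adjusted p = 0.0403). With the share of reads in no feature removed from both genes of each pair, 6 of 28 pairs passed by r. Among them were CHRM1 with CHRNB2 at 0.78 and CHRM1 with CHRNA4 at -0.60. CHRNA4 with CHRM3, at -0.33, and with CHRNB2, at -0.38, no longer passed (adjusted permutation p = 0.146 and 0.0936).

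For each gene the 3 genes with the most similar pattern were sought among 14531 others by r over the 32 libraries, as a description. CHRM1 was nearest to AP2M1, a clathrin adaptor subunit (r = 0.93), NCDN (0.92) and the glycolytic enzyme gene GPI (0.92). CHRM3 was nearest to KCNS3, a modulatory potassium channel subunit (0.92), TMTC1 (0.89) and the calcium sensor NCALD (0.89). CHRNA4 was nearest to ASTN2 (0.91), the vesicle coat gene SEC24D (0.91) and PTCHD4 (0.89). Among the nearest to CHRNB2 were PTPRN (0.88) and AMIGO1 (0.87).

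Likeness was looser for the rest. CHRNA7 was nearest to the glutamate receptor GRM8, PCP4L1 and HS3ST2 (0.77 each), and CHRM4 to the transcription factor EGR2 (0.75), MESDC1 (0.73) and PISD (0.71). Among the nearest to CHRM2 were NDST3 (0.77) and the serotonin receptor HTR2C (0.76). ACHE had no neighbour above 0.64, its nearest being PIGO, ATP13A2 and TXNDC11 at 0.64, 0.62 and 0.61. Without the 3 libraries that stood apart the r of the genes named ran between 0.58 for TXNDC11 and 0.90 for AP2M1.

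Other genes of cholinergic signalling were counted by list. Of 14 further receptor subunits 13 were tested between prefixes, with a median log2 difference of 0.39 against 0.005 over all genes. The largest estimates were those of CHRNA9, CHRNA5, CHRNB3 and CHRND, which averaged only 0.72, 1.22, 0.49 and 0.33 CPM. Of the 13, 1 was higher in prefix 2010 and 0 lower, where 7.12% of all genes were higher. The one was CHRNG, the fetal muscle subunit, which had 1.16, 1.51 and 2.13 CPM in prefix 2010 (lowest, median, highest) against 0.79, 1.19 and 1.67 CPM in prefix 2009, a difference of 0.39 ± 0.12 (edgeR adjusted p = 0.0232). With low title numbers only it was not called. Those with most CPM were CHRNE at 12.9 ± 1.98, CHRM5 at 11.7 ± 4.64 and CHRNB1 at 11.3 ± 1.64 CPM (SD, n = 32), and none of them passed between prefixes. CHRNE overlaps MINK1 in the RefSeq table, so its reads are uncertain. With the immature neuron score, CHRNA3, the alpha subunit of ganglionic receptors, rose by 0.48 ± 0.12 per SD (adjusted p = 0.00156), CHRNB1 rose by 0.12 ± 0.03 (0.00288) and CHRNA10 fell by 0.25 ± 0.07 (0.00442). These are 3 of 8 tested, where 33.5% of all genes passed. With prefix as a factor CHRNA3 alone passed, where 11.6% of all genes did.

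Genes that make, move or break down acetylcholine gave no call between prefixes, 0 of 7 tested in edgeR and DESeq2. Of all genes, 12.5% were called by edgeR and 14.8% by DESeq2. The synthesis gene CHAT was nearly absent outside replicates 2 and 8 of prefix 2010, with a median of 1 read over the other 30 libraries. The vesicular transporter SLC18A3 had 11 reads in replicate 2 and 3 in replicate 8. Its median over the other 30 libraries was 1 read and its highest count there 3. The choline transporter SLC5A7 had 90 and 71 reads in those replicates and at most 69 elsewhere. ACLY, which supplies acetyl-CoA, had 238 ± 35.6 CPM, the choline transporter SLC44A1 160 ± 28.2 CPM and COLQ, the collagen tail of ACHE, 18.5 ± 3.55 CPM (SD, n = 32). Along the score ACLY rose by 0.13 ± 0.03 (edgeR adjusted p = 0.00102) and SLC44A1 fell by 0.16 ± 0.04 (0.000731), the 2 calls among 6 tested, where 33.5% of all genes passed. With prefix as a factor, within prefix 2010 and within prefix 2009, 0 passed, where 11.6%, 5.42% and 1.06% of all genes did.

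Of 6 chaperones and modulators of nicotinic receptors 5 were in the table. LYPD1, a membrane-anchored protein that binds these receptors, was higher in prefix 2010 by 0.50 ± 0.17 (edgeR adjusted p = 0.0455), with 9.21, 19.4 and 48.4 CPM in prefix 2010 (lowest, median, highest) against 10.04, 15.01 and 23.3 CPM in prefix 2009. The top level belonged to replicate 2 of prefix 2010, and LYPD1 was not called without the 3 libraries that stood apart or with low title numbers only. The most counted were the chaperone RIC3 at 61.9 ± 9.87 CPM, the inhibitor LYNX1 at 52.8 ± 12.7 CPM and LYPD6 at 24.6 ± 4.21 CPM. With the score, RIC3 rose by 0.13 ± 0.03 (adjusted p = 0.00413) and LYPD6 by 0.10 ± 0.04 (0.0474), and LYNX1 fell by 0.18 ± 0.06 (0.0101), 3 of 5 tested where 33.5% of all genes passed. RIC3 alone passed with prefix as a factor, and likewise without the 2 libraries farthest in score, where 11.6% and 26.4% of all genes did.

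Muscarinic effectors had the most calls of these 4 lists between prefixes. Of 15 tested, 4 were lower in prefix 2010 and 0 higher, where 5.36% of all genes were lower and 7.12% higher, and the list's median difference was -0.13. Marker lists moved between prefixes as well. Of 7 dentate granule markers 2 were lower, C1QL2 and PLEKHA2, with summed levels of 186 to 620 CPM in prefix 2010 and 236 to 635 CPM in prefix 2009. Of 10 interneuron markers 3 were higher, with sums of 376 to 567.9 CPM in prefix 2010 and 340 to 476 CPM in prefix 2009, and of 7 oligodendrocyte precursor markers 3, with sums of 1224 to 1941 CPM in prefix 2010 and 975 to 1762 CPM in prefix 2009. Higher in prefix 2010 were also 10 of 12 immature neuron markers, with sums of 1160.3 to 2812 CPM in prefix 2010 and 967 to 1958 CPM in prefix 2009. So were 4 of 8 striatal markers, with sums of 106 to 1042 CPM in prefix 2010 and 85.4 to 163 CPM in prefix 2009. The median striatal sums were 130 and 121 CPM, and only replicates 2 and 8 of prefix 2010, at 1042 and 371 CPM, exceeded 163 CPM. Of 6 microglial markers tested 2 were higher, C1QA and C1QB, and of 5 thalamic markers 1, RGS16. Of 6 basal forebrain cholinergic markers tested LHX8 alone was higher, and of 6 endothelial markers SLCO1A2 alone was lower. No CA pyramidal, astrocyte, mature oligodendrocyte or choroid plexus marker was called. The part of the marker lists in the result was not tested. KCNQ5 encodes a channel of the M current, which Gq-coupled muscarinic receptors close. KCNQ5 had 61.0, 106 and 166 CPM in prefix 2010 (lowest, median, highest) against 58.9, 171 and 224 CPM in prefix 2009, and fell by 0.57 ± 0.14 (edgeR adjusted p = 0.00609). The lowest KCNQ5 levels were in replicate 15 of prefix 2010 and replicate 1 of prefix 2009, and the ranges overlapped.

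KCNJ9 and RGS7, also called, belong to the Gi/o branch. KCNJ9, a subunit of G protein-gated potassium channels, averaged 112 ± 14.4 CPM in prefix 2010 and 138 ± 22.3 CPM in prefix 2009, a log2 difference of -0.29 ± 0.08 (edgeR adjusted p = 0.0146). RGS7, which speeds the shut-off of Gi/o proteins, averaged 58.2 ± 5.41 CPM in prefix 2010 and 66.0 ± 6.82 CPM in prefix 2009, a log2 difference of -0.18 ± 0.05 (adjusted p = 0.0215). The effectors with most CPM, GNAQ at 403 ± 46.5, PLCB1 at 387 ± 48.2 and GNAO1 at 254 ± 43.4, did not pass with all libraries. Without the 3 libraries that stood apart 7 of 15 effectors, PLCB1 among them, were lower and 0 higher, where 6.92% of all genes were lower. With low title numbers only, KCNJ9 alone was called, as lower, where 2.14% of all genes were lower. Along the score 6 effectors fell, KCNQ5 by 0.31 ± 0.07 (adjusted p = 0.000858), and GNAI1 rose by 0.13 ± 0.04 (0.00482), where 17.2% of all genes fell and 16.3% rose. With prefix as a factor 2 effectors fell and GNAI1 rose, where 6.51% of all genes fell and 5.13% rose.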

How the data were processed

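Per the labels' protocols, total RNA of each hippocampus was depleted of ribosomal RNA and made into stranded Illumina TruSeq libraries. The authors deposited raw read counts per gene for 32 libraries. STAR and HTSeq are named in the submitters' processing notes, without versions. The strand setting, genome build and annotation were not stated in any source used. Beside 33994 gene rows, 5 rows sum reads outside genes, and these entered neither library sizes nor tests. On average 57.0% of reads fell in no feature. Of 17250 rows named by a gene number, 825 were given a symbol from the RefSeq table.

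Counts were scaled by TMM and tested by edgeR 4.0.16 (quasi-likelihood, filterByExpr with a minimum count of 10, Benjamini-Hochberg over all genes tested, threshold 0.05) in R 4.3.3. DESeq2 1.42.0 was an alternative. All 32 libraries entered the prefix and score fits. Correlations and ratios used log2 CPM with a prior count of 2. The score is the mean of z-scored log2 CPM over 12 genes, scaled to an SD of 1. Fits were tested on simulated data. The 8 genes, the other lists and the tests were chosen with earlier results of these data known. Replicate numbers follow deposition order. P-values measure spread between these libraries. Genes named beside the 8 were those called between prefixes, the 3 highest CPM of each list, those called with the score and the 3 most alike; the score calls were added after their values were seen. Alternatives covered scaling, filters, covariates, subsets and leaving out each library. Some genes that these rules would name are not reported here.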

Additional observations from a re-analysis of the deposited data

Results flagged for a closer look

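Among the 7 low-numbered and 9 high-numbered libraries of prefix 2010, the gap of the highest or lowest library to the next was set against the group's range for each of the 8 genes, 16 gene and group combinations in all, and chance alone flags about 1 in 20 groups. In the low-numbered group, replicate 2 had a CHRM3 level of 35.8 CPM, far under the next lowest of 86.0 CPM, and a CHRM4 level of 19.4 CPM, far over the next highest of 13.3 CPM. This is the library with striatal markers summing to 1042 CPM, and the part of those markers in the values was not tested. In the high-numbered group, replicate 15 had 8.18 CPM of CHRM4 against a next lowest of 11.8 CPM, and 44.0 CPM of CHRNB2 against a next lowest of 62.8 CPM. It had the second highest immature neuron score of the 32 libraries, 1.75.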

How the results depend on the processing

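The count of genes called between prefixes, 2991, was 1162 with low title numbers only and 1 with the score added to the fit, which is confounded with prefix. Slopes called with the score, 6690, were 2323 with prefix as a factor, 1045 within prefix 2010 and 208 within prefix 2009. Between high and low title numbers the 0 genes became 4 with library totals, 109 in DESeq2 and 88 without the 3 libraries that stood apart, and for the slope difference the 0 became 2 with no count filter and 1 without the 3 libraries. With library totals the split between prefixes was 2310 higher and 985 lower, against 1707 and 1284, and for the score 4111 and 2806, against 3255 and 3435. Of the 8 cholinergic genes, the 0 called between prefixes became 2 with the share of reads in no feature as a covariate and 1 without the 3 libraries. Of all genes, 18.5% and 14.4% were called in these settings. The 1 called with the score became 2 with library totals, 3 with reads in no feature as a covariate and 4 without the 3 libraries. Of all genes, 34.7%, 37.3% and 35.7% were called there. It became 0 with prefix as a factor, within prefix 2010, within prefix 2009 and without the 2 libraries farthest in score. Of all genes, 11.6%, 5.42%, 1.06% and 26.4% were called there. The 8 pairs passing by r became 5 without the 2 farthest libraries, 1 within prefix 2010, 4 there without replicates 2 and 8, and 0 within prefix 2009 without replicate 1. The 1 ratio passing became 0 with low title numbers, where CHRNA7 to CHRNB2 was 0.44, and 2 without the 3 libraries, where CHRNA4 to CHRNB2 was 0.66 and CHRM1 to CHRM3 -0.019.

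Signs turned as follows, and among called values this held for the slope of CHRNB2 within prefix 2009, 0.10, and for the pairs CHRM3 with CHRNA7 and CHRM2 with CHRNA4, the last called by rho. Between prefixes with the score in the fit CHRM4 was 0.22 and ACHE -0.033. For title numbers with the share in no feature as a covariate CHRM3 was -0.21 and CHRNA4 0.24, and without the 3 libraries CHRM3 was -0.010 and CHRM4 0.11. Score slopes with prefix as a factor were -0.0087 for CHRM2, 0.11 for CHRM3, -0.17 for CHRNA4 and -0.024 for CHRNA7. Within prefix 2009 they were 0.17 for CHRM1, -0.0043 for CHRM2, 0.16 for CHRM3, -0.66 for CHRNA4, -0.20 for CHRNA7 and -0.028 for ACHE, and within prefix 2010 0.084 for CHRM3. Slope differences were -0.0051 for CHRM2 with no count filter and 0.13 for CHRM4 without the 3 libraries. The r of CHRM2 with CHRNA4 was -0.093 within prefix 2009, but 0.74 there without replicate 1. The r of CHRM3 with CHRNA7 was 0.030 without the 3 libraries, 0.074 within prefix 2009 without replicate 1 and 0.31 within prefix 2010 without replicates 2 and 8. The cause was not tested.

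Leaving out each library in turn gave 2237 to 3870 genes between prefixes, 5952 to 6946 with the score and 0 to 19 between title numbers. Of the 8 genes, 0 to 4 were called between prefixes, 4 without replicate 1 of prefix 2009, and 0 to 3 with the score. Ratios passing numbered 1 to 3, with CHRNA4 to CHRNB2 at 0.45 to 0.69 and ACHE to BCHE at 0.21 to 0.32. Differences between title numbers spanned -0.087 to 0.034 for ACHE, -0.097 to 0.012 for CHRM1, -0.083 to 0.12 for CHRM3, -0.068 to 0.12 for CHRM4, -0.14 to 0.010 for CHRNA7 and -0.067 to 0.027 for CHRNB2. The prefix difference of CHRM4 spanned -0.093 to 0.0021 and the slope of CHRNA4 -0.0067 to 0.19. No paired analysis was made, because each library was taken as 1 animal and the labels pair no libraries. A count of 3, the limit that a count of 0 allows, came to 0.152 to 0.321 CPM and covers counting error only, and all 8 genes lay above it in every library.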
